A study of Mus musculus with 9 samples.

Results

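The genes described here are 10 genes of the urea cycle and of ammonia handling, read from the liver RNA of 9 male Wistar rats. They were taken by gene symbol from a count table of 19686 genes, and each of the 10 symbols matched 1 row: Cps1, Otc, Ass1, Asl, Arg1, Nags, Slc25a15, Slc25a13, Glul and Gls2. The study gave rats a fructose drink to produce features of metabolic syndrome and asked what extracts of Danggui-Shaoyao-San (DSS), a formula of dried herbs, change in that state. The control group (3 rats) drank purified water and received saline by gavage. The model group (3 rats) drank 15% fructose and received saline, and the HME group (3 rats) drank the same and was given 1.8 g/kg of a DSS extract made with 50% methanol, all for 8 weeks. The labels call the extract group DSS, and HME is the study's name for the only extract taken to transcriptomics. All rats were fasted for 12 h before the liver was taken, so every level below is that of a fasted liver. No group received the extract without fructose. Mouse is given as the organism in the labels, yet both the Wistar strain and the Ensembl gene identifiers belong to the rat, so the samples were treated as rat.

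Liver is the organ that turns ammonia into urea. In the mitochondrion Nags makes N-acetylglutamate, the obligate activator of Cps1, which joins ammonia and bicarbonate into carbamoyl phosphate, and Otc transfers that group to ornithine to give citrulline. In the cytosol Ass1 joins citrulline with aspartate, Asl splits the product into arginine and fumarate, and Arg1 cleaves arginine into urea and ornithine. Slc25a15 carries ornithine and citrulline across the inner mitochondrial membrane, and Slc25a13, called citrin, exports aspartate. Gls2, the liver glutaminase, releases ammonia from glutamine in periportal hepatocytes, where the cycle enzymes are also abundant. Glul, glutamine synthetase, captures ammonia as glutamine in a thin layer of hepatocytes around the central vein.

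The libraries held between 14345819 and 26837227 counts, and the lowest count of any of the 10 genes in any library was 1311, so the spread between rats and not counting error set the precision. Levels are in CPM, read counts brought to a common library size with TMM factors, which adjust for RNA composition. Differences were fitted with edgeR's two-sided quasi-likelihood test on the 6 libraries of 2 groups and are given as log2FC, the log2 ratio of fitted group means, with its standard error (SE). "Differential" means a log2FC of 0.5 or more in either direction together with a false discovery rate (FDR, Benjamini-Hochberg over all genes tested) no higher than 0.01. For a single gene, exact permutation of 3 against 3 rats reaches p = 0.1 at the lowest. Hepatocyte markers (7 of 7 in the table, none at 0) summed to between 137724 and 175277 CPM in the control rats, 176605 and 229188 CPM in the model rats and 173935 and 219302 CPM in the HME rats. The model rats were thus all above the control rats in this sum. Of the 7 markers, 2 were higher without overlap and 0 lower, against 21.1% of all genes without overlap. Alb, the largest, overlapped, at 115132 CPM in control replicate 2 and 111832 CPM in model replicate 2. Between the HME and control rats the sums overlapped, but 3 of the 7 markers were higher without overlap and 0 lower, against 30% of all genes without overlap. The median log2FC of the 7 against control was 0.34 in the model and 0.26 in the HME group. The part of these markers in the results below was not tested. In bulk liver, fewer cells of a type cannot be told apart from less RNA per cell.

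Compared with the control group, the model group had lower levels of Cps1, Ass1, Asl and Gls2 and a higher level of Glul, in each case without overlap between the 3 rats of either group. None of the 10 genes was differential by edgeR at both thresholds, against 0.0801% of the 12486 genes tested. By DESeq2 on the same genes, Cps1, Ass1 and Gls2 were differential and lower, against 2.05% of genes differential. With edgeR, 5 of the 10 had an unadjusted p under 0.05, against 13.2% of genes, and 5 of 10 did not overlap between groups, against 21.1%. The median log2FC was -0.23 over the 10 genes and 0.00 over all genes tested, and 8 of the 10 were lower, against 50.1% of all genes. The 10 genes were chosen with earlier results of these data known, so these shares describe them and do not test the list. With library size alone, which moved the median log2FC of all genes to -0.145, Arg1, Nags and Slc25a15 were also lower without overlap, and Glul overlapped. The share of all genes without overlap was not computed for that scaling.

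**Figure D1:**
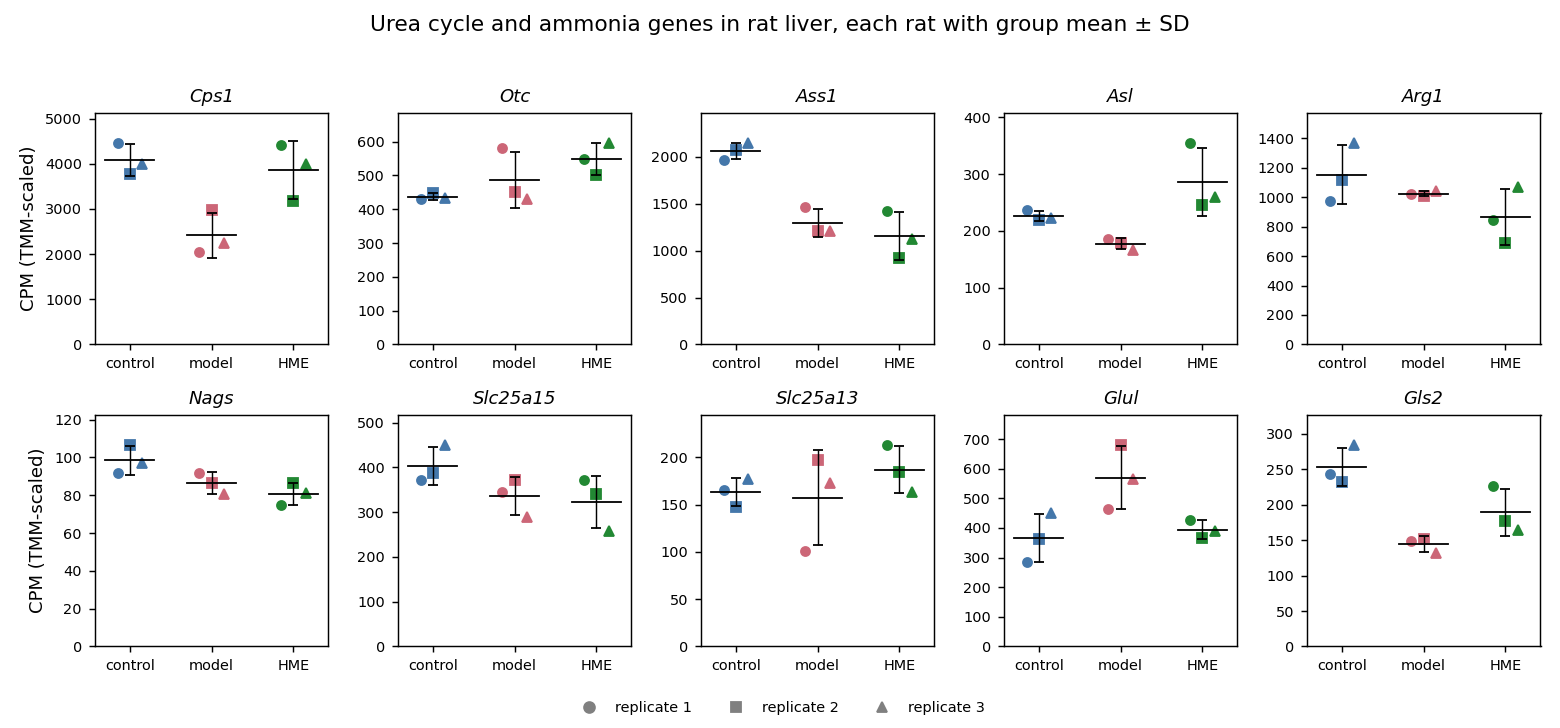
Level of each of the 10 genes in CPM (y axis, from 0) in the 3 control, 3 model and 3 HME rats, with a symbol per replicate, a line at the group mean and a bar of 1 SD. Cps1, Asl and Gls2 were low in the model rats and Glul was high in them, and Ass1 and Gls2 were below every control rat in both fructose groups.

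Cps1 (carbamoyl-phosphate synthase 1, ENSRNOG00000013704), the entry step of the cycle, was at 4461, 3767 and 3996 CPM in the control rats. In the model rats it was at 2037, 2977 and 2243 CPM, and in the HME rats at 4419, 3170 and 4006 CPM. Every model rat was below every control rat and every HME rat, and the HME rats overlapped the control rats. The group means were 4075 ± 354, 2419 ± 494 and 3865 ± 636 CPM (SD, n = 3 rats each). The model group had a log2FC of -0.76 against control (SE 0.184, edgeR FDR 0.123), or 0.592 times the control level. This value lay between -0.93 and -0.66 with each rat left out. DESeq2 gave an FDR of 0.00454 for the same comparison. Between the HME and model groups the log2FC was 0.68 (SE 0.204, edgeR FDR 0.384, DESeq2 FDR 0.0875), and between the HME and control groups it was -0.08 (95% interval -0.43 to 0.26).

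Otc (ornithine transcarbamylase, ENSRNOG00000003370), the other carbamoyl-group enzyme of the mitochondrion, was not lower in the model rats. It was at 431, 449 and 433 CPM in the control rats, 581, 450 and 429 CPM in the model rats and 548, 500 and 596 CPM in the HME rats. Only the HME rats stood clear of the control rats, all above them, with a log2FC of 0.32 (SE 0.117, edgeR FDR 0.133). In the model group against control it was 0.15 (95% interval -0.21 to 0.52), and this rested on model replicate 1, since the value without that rat was -0.01. When libraries were scaled by their size alone, without TMM, it was -0.0049.

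Nags (N-acetylglutamate synthase, ENSRNOG00000020879), the maker of the Cps1 activator, had group means of 98.4 ± 7.58 (control), 86.4 ± 5.61 (model) and 80.7 ± 5.71 CPM (HME). The HME rats, at 74.8, 86.2 and 81.2 CPM, were all below the control rats, at 91.6, 107 and 97.0 CPM. Their log2FC was -0.29 (SE 0.108, edgeR FDR 0.134), and with library size alone it was -0.42 (edgeR FDR 0.0463). The model rats, at 91.9, 86.6 and 80.7 CPM, overlapped the control rats, with a log2FC of -0.19 (95% interval -0.48 to 0.10).

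Ass1 (argininosuccinate synthase 1, ENSRNOG00000008837) was lower than control without overlap in both fructose groups under either scaling. With TMM no other cycle enzyme was lower without overlap in both, but with library size alone Arg1 was as well. Outside the cycle enzymes, Gls2 was lower in both under either scaling, and Nags and Slc25a15 were with library size alone. For Ass1 the control rats were at 1970, 2068 and 2146 CPM, the model rats at 1465, 1209 and 1213 CPM, and the HME rats at 1420, 918 and 1124 CPM. All 6 fructose rats were below all 3 control rats, and the model and HME rats overlapped. The group means were 2061 ± 88.2, 1296 ± 147 and 1154 ± 253 CPM. Against the control group, the log2FC was -0.67 in the model group (SE 0.154, edgeR FDR 0.116, DESeq2 FDR 0.00107). For the HME group it was -0.84 (SE 0.166, edgeR FDR 0.0202, DESeq2 FDR 6.42e-05), or 0.557 times the control level. The edgeR FDR was 0.00809 with library size alone and 0.00184 with no filter on low counts, so Ass1 was differential there, and it was 0.0163 to 0.0656 with each rat left out. Between the HME and model groups it was -0.16 (95% interval -0.61 to 0.29).

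Asl (argininosuccinate lyase, ENSRNOG00000000903), the enzyme that acts on the product of Ass1, had another pattern. It was at 237, 219 and 223 CPM in the control rats, 186, 179 and 167 CPM in the model rats and 355, 245 and 259 CPM in the HME rats. The groups did not overlap in any of the 3 comparisons, with the model rats lowest and the HME rats highest. The log2FC was -0.35 in the model group against control (SE 0.124, edgeR FDR 0.278) and 0.70 in the HME group against model (SE 0.172, edgeR FDR 0.243, DESeq2 FDR 0.029). Against the control group the HME group was at 0.33 (SE 0.152, edgeR FDR 0.216), a value of 0.15 without HME replicate 1, the highest rat. With library size alone the HME and control rats overlapped.

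Arg1 (arginase 1, ENSRNOG00000013304), the step that releases urea, was at 972, 1119 and 1367 CPM in the control rats, 1019, 1010 and 1040 CPM in the model rats and 845, 687 and 1067 CPM in the HME rats. The model rats were closely grouped, and with TMM the groups overlapped in all 3 comparisons. The log2FC values were -0.18 in the model group against control (95% interval -0.56 to 0.21), -0.23 in the HME group against model (-0.65 to 0.18) and -0.42 in the HME group against control (-0.85 to 0.01). These intervals do not reach a rise of 0.5 on the log2 scale, but they do reach a decrease of that size. With each rat left out, the values lay between -0.29 (without control replicate 1) and -0.03 (without control replicate 3), between -0.40 (without HME replicate 3) and -0.09 (without HME replicate 2), and between -0.58 and -0.27, the last of these without control replicate 3. With library size alone the HME rats, at 695 to 969 CPM, were all below the control rats, at 1102 to 1434 CPM (log2FC -0.56, edgeR FDR 0.0563), and the model rats were below the control rats too.

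With TMM scaling, both carriers of the cycle overlapped between groups in every comparison. With library size alone Slc25a15 was lower without overlap in both fructose groups than in the control group (log2FC -0.41 in the model and -0.45 in the HME group), and Slc25a13 still overlapped. Slc25a15 (ENSRNOG00000011881) was at 371, 388 and 450 CPM in the control rats, 344, 372 and 289 CPM in the model rats and 372, 340 and 259 CPM in the HME rats. Against control its log2FC was -0.27 for the model (edgeR FDR 0.506) and -0.32 for the HME rats (edgeR FDR 0.239). Slc25a13 (ENSRNOG00000009957) varied most of the 10 genes in the model group relative to its mean, where model replicate 1 was at 101 CPM and the others at 198 and 173 CPM. The control rats were at 166, 148 and 177 CPM and the HME rats at 213, 184 and 164 CPM. Its log2FC in the model group against control was -0.06, and it turned to 0.17 without model replicate 1.

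The enzymes that release and capture ammonia through glutamine differed in opposite directions in the model rats. Gls2 (glutaminase 2, ENSRNOG00000031612) was at 243, 233 and 284 CPM in the control rats, 149, 152 and 132 CPM in the model rats and 227, 177 and 164 CPM in the HME rats. The HME rats lay between the other groups without overlapping either, but with library size alone HME replicate 3 fell within the model range, below model replicate 2. The log2FC in the model group against control was -0.82 (SE 0.141, edgeR FDR 0.0521, DESeq2 FDR 5e-05), the lowest FDR of the 10 genes in this comparison. With each rat left out it lay between -0.87 and -0.72. It was 0.40 in the HME group against model (SE 0.161, edgeR FDR 0.58), a value of 0.24 without HME replicate 1, and -0.43 in the HME group against control (SE 0.151, edgeR FDR 0.121).

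Glul (glutamine synthetase, ENSRNOG00000049560) was at 287, 362 and 450 CPM in the control rats, 466, 680 and 564 CPM in the model rats and 428, 365 and 391 CPM in the HME rats. The model rats were the highest 3 of the 9, although model replicate 1 stood only just above control replicate 3. The log2FC was 0.63 in the model group against control (SE 0.21, edgeR FDR 0.253) and -0.52 in the HME group against model (SE 0.172, edgeR FDR 0.449). Between the HME and control groups it was 0.10 (95% interval -0.28 to 0.48). With library size alone the model rats overlapped both other groups, and the first log2FC was 0.52.

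Compared with the model group, Cps1, Asl and Gls2 were higher and Glul was lower in the HME group, each without overlap. With library size alone, Gls2 and Glul overlapped, Otc was higher without overlap, and 3 of the 10 had an unadjusted p under 0.05. The shares of all genes were not computed for that scaling, and those that follow are with TMM. None of the 10 genes was differential by edgeR, against 0.136% of the 12502 genes tested, or by DESeq2, against 1.18%. The median log2FC of the 10 was 0.07, and 5 of 10 were lower, against 49.9% of all genes. With edgeR, 4 of the 10 had an unadjusted p under 0.05, against 8.02% of genes, and 4 of 10 did not overlap, against 13.9%. The 3 model libraries stand in both comparisons with the model group, so a chance value of a model rat pushes both fold changes in opposite directions. When HME was compared with control, none of the 10 was differential by edgeR, against 1.48% of 12633 genes, and 1 of 10 (Ass1) was by DESeq2, against 6.09%. There 4 of 10 had an unadjusted p under 0.05, against 24.3% of genes, and 5 of 10 did not overlap, against 30%. The median log2FC was -0.19, and 6 of 10 were lower, against 50.9% of all genes. At an FDR of 0.05 in place of 0.01, 1 of 10 (Ass1) was differential by edgeR, against 6.36%. As the 10 genes were chosen with earlier results of these data known, the shares in both comparisons describe them and do not test the list.

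**Figure D2:**
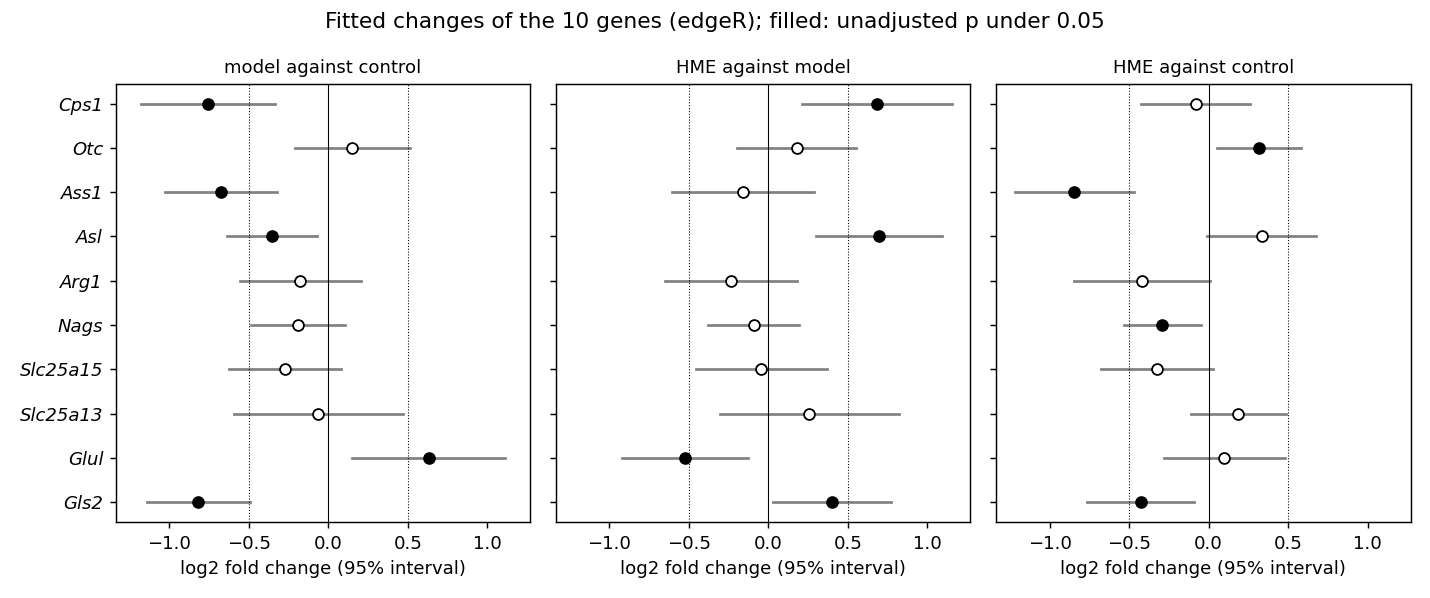
Fitted log2FC (x axis) of each gene in the 3 comparisons with its 95% interval from edgeR, filled where the unadjusted p is under 0.05 and with dotted lines at the fold threshold of 0.5 in either direction. Cps1, Asl, Gls2, Glul and Slc25a13 lie on opposite sides of 0 in the first and second panels, all but Slc25a13 filled in both. Cps1, Ass1, Arg1, Nags, Slc25a15 and Gls2 lie below 0 against the control group in both fructose groups, of which Ass1 and Gls2 are filled in both.

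The ratio of read counts of 2 genes within a library does not depend on how libraries are scaled, and transcript length cancels when the ratio is compared between rats. These ratios were chosen after the levels were seen and are given without a test. The ratio of Glul to Gls2, capture against release of glutamine ammonia, was 1.18, 1.56 and 1.58 in the control rats, 3.13, 4.47 and 4.28 in the model rats and 1.89, 2.06 and 2.39 in the HME rats. The 3 groups did not overlap, and the HME rats lay between the others. The ratio of Cps1 to Glul was 15.6, 10.4 and 8.87 in the control rats, 4.37, 4.38 and 3.97 in the model rats and 10.3, 8.68 and 10.2 in the HME rats, so only the model rats stood apart. The ratio of Ass1 to Asl, consecutive steps of the cycle, averaged 9.12 ± 0.711 (control), 7.29 ± 0.561 (model) and 4.03 ± 0.296 (HME), again with no overlap among the 3 groups. The ratio of Cps1 to Ass1 was between 1.82 and 2.26 in the control rats, 1.39 and 2.46 in the model rats and 3.11 and 3.56 in the HME rats.

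**Figure D3:**
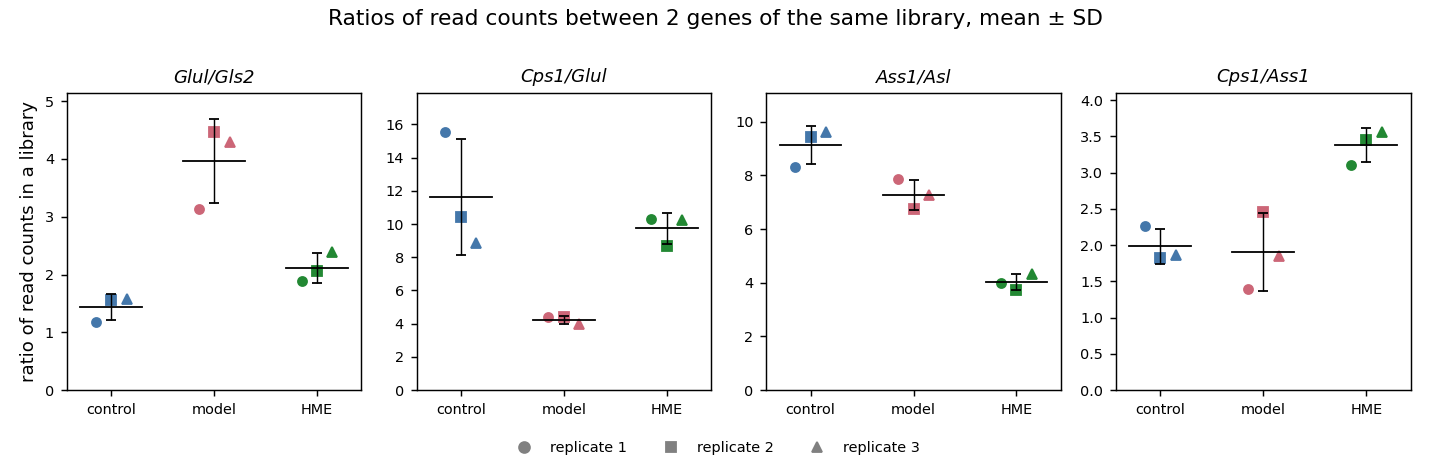
Ratios of read counts between 2 genes of the same library (y axis, from 0) for each rat, with the group mean and a bar of 1 SD. The Glul to Gls2 ratio was 1.44 ± 0.227 in the control, 3.96 ± 0.727 in the model and 2.11 ± 0.256 in the HME group, and the Ass1 to Asl ratio was lowest in the HME rats.

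To set the levels of the genes beside each other, CPM were divided by the length of the longest protein-coding mouse transcript of the same symbol, since rat transcript lengths were not used here, so that small differences between genes cannot be read. On this scale of CPM per kb, the control group had Ass1 highest at 1215, ahead of Arg1 at 780 and Cps1 at 733. The control rats of Arg1 (658 to 926) and Cps1 (678 to 803) overlapped, and those of Ass1 (1162 to 1266) stood above both. Otc at 146, Glul at 131 and Slc25a15 at 117 formed a lower tier, in which Glul (103 to 161) overlapped both its neighbours. Gls2 at 98.5 overlapped Slc25a15 above it and Asl at 93.8 below it, and Slc25a13 at 52.4 and Nags at 48.5, which overlapped each other, came last. Per kb of coding sequence, which leaves out the UTRs, the order differed: Slc25a15 at 446 stood ahead of Otc at 415, which it overlapped, and of Glul at 327, Asl at 163 ahead of Gls2 at 140, and the control rats of Arg1 (1003 to 1411) no longer overlapped those of Cps1 (837 to 991). On the transcript scale of the HME group, Cps1 at 696, Ass1 at 680 and Arg1 at 587 overlapped each other. The 5 cycle enzymes together made up 0.783% to 0.915% of a control library, 0.458% to 0.608% of a model library and 0.558% to 0.753% of an HME library, with model replicate 2 above HME replicate 2.

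The 10 genes did not share 1 pattern over the 9 rats. The likeness of 2 patterns was measured as Pearson's r of log2(CPM + 1) over the 9 libraries and is given as a description, since the rats fall into 3 groups that share their treatment. Cps1 was most alike to Gls2 (r = 0.80) and Asl (0.76), and Ass1 to Gls2 (0.75), Slc25a15 (0.68) and Arg1 (0.67). Ass1 and Asl had an r of 0.02 over the 9 rats but 0.85 when each group mean was removed. Glul was opposite to Cps1 (-0.58) and Gls2 (-0.57). For Cps1 and Glul the sign turned to 0.43 when group means were removed, so their opposite course lay between the groups and not between rats of a group.

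Among the 12264 genes tested in all 3 comparisons, those most alike to the mean of the 5 cycle enzymes were Emd (r = 0.97), Fads3 (0.96), LOC685273 (0.92), Eef1akmt1 (0.90) and Xrcc4 (0.90), of which Emd had the highest control mean at 12.8 CPM. The most opposite were Asns (-0.92), Arl5a (-0.92), Lars (-0.90), Psat1 (-0.88) and Cenpj (-0.88). Pairs of the 5 enzymes had an r from -0.44 (Otc and Ass1) to 0.76 (Cps1 and Asl). A gene like their mean therefore need not be like each enzyme, and the genes named are the extremes of 12264 over only 9 libraries. Asns, asparagine synthetase, averaged 2.68 CPM in the control, 24.2 CPM in the model and 9.44 CPM in the HME group. Its ranges were 1.46 to 3.85, 18.1 to 31.7 and 4.12 to 17.9 CPM, without overlap among the 3 groups. Psat1, an aminotransferase of serine synthesis, averaged 3.03, 24.4 and 11.2 CPM in the same order. The patterns most like that of Glul were those of Fgfr3 (r = 0.92), Jph4 (0.91) and Pcsk6 (0.90).

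Around the cycle, 5 further groups of genes were read from the same fits. Of 18 genes that supply ammonia or amino groups, 3 were higher and 3 lower in the model group at an unadjusted p under 0.05, against 13.2% of all genes. None passed both thresholds, against 0.0801% of all genes, and the median log2FC was 0.01. Sds, serine dehydratase, was at 44.9, 11.8 and 52.4 CPM in the control rats and at 5.59, 1.48 and 1.35 CPM in the model rats, a log2FC of -3.64 (edgeR FDR 0.0844, DESeq2 FDR 0.00166). In the HME rats it was at 41.1, 0.755 and 6.71 CPM, so that 1 HME rat was below every model rat and another was within the control range. Agxt, which moves amino groups from alanine to glyoxylate, was at 49.1, 49.4 and 51.8 CPM in the control rats, 115, 72.6 and 89.3 CPM in the model rats and 93.7, 79.3 and 97.5 CPM in the HME rats. Of all genes, 1.48% passed both thresholds in the HME group against control, in either direction. Agxt was the only gene of these groups that rose past them there, with a log2FC of 0.84 (edgeR FDR 0.00359). With each rat left out its FDR lay between 0.00427 and 0.0174, and it passed only without HME replicate 2. Cth, which releases ammonia from cystathionine, was between 575 and 714 CPM in the HME rats against 194 to 367 CPM in the control rats (log2FC 1.02, edgeR FDR 0.0439, up to 0.113 with 1 rat left out). Dld, a subunit of the glycine cleavage system, had a log2FC of -0.23 between the HME and model groups (edgeR FDR 0.719).

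Of 8 genes that supply bicarbonate and handle aspartate and fumarate, 2 were higher and none lower in the model group against control at an unadjusted p under 0.05 (13.2% of all genes), and 1 was higher and 3 lower in the HME group against model (8.02% of all genes). Mdh1, cytosolic malate dehydrogenase, was at 226, 230 and 237 CPM in the HME rats, below the model rats at 473, 386 and 366 CPM and the control rats at 348, 523 and 455 CPM. Its log2FC was -0.94 against control (edgeR FDR 0.0103) and -0.82 against model (edgeR FDR 0.0738, DESeq2 FDR 8.17e-05). With each rat left out the FDR against control lay between 0.00527 and 0.0439. Pc, pyruvate carboxylase, was at 433, 428 and 410 CPM in the control rats and 713, 791 and 648 CPM in the model rats (log2FC 0.76, edgeR FDR 0.0629). The HME rats lay between them at 584, 518 and 532 CPM. Car5a, the mitochondrial carbonic anhydrase of liver that provides bicarbonate to Cps1, was at 34.7, 22.3 and 17.9 CPM in the model rats and 43.7, 54.4 and 42.0 CPM in the HME rats, with a log2FC of 0.91 (edgeR FDR 0.309). Car5b, a related anhydrase at 1.25 to 4.31 CPM over the 9 rats, had a log2FC of 1.14 in the model group against control (edgeR FDR 0.18).

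Of 21 transporter genes, 20 were in the table and 16 were tested in the model group against control. At an unadjusted p under 0.05, 4 were higher and none lower, against 13.2% of all genes. None was past both thresholds, against 0.0801% of all genes. Slc14a1, a urea transporter, had 113, 44 and 28 counts in the model rats, 16, 25 and 3 in the control rats and 4, 4 and 7 in the HME rats. Its log2FC between the HME and model groups was -3.53 (edgeR FDR 0.0358, DESeq2 FDR 1.7e-06), and the edgeR FDR was between 0.0362 and 0.201 with each rat left out, highest without HME replicate 2. Slc14a1 is also carried by red blood cells, whose markers (7 of 8 in the table, none at 0) summed to 399 to 613 CPM in the model and 362 to 731 CPM in the HME rats, and their part in this result was not tested. Aqp8, a water channel that also passes ammonia, was between 100 and 153 CPM in the control rats, 192 and 273 CPM in the model rats and 173 and 233 CPM in the HME rats. Its log2FC in the HME group against control was 0.76 (edgeR FDR 0.0401). Slc38a4, an amino acid transporter, was between 747 and 1082 CPM in the HME rats, above every model and control rat, with a log2FC of 0.63 against control (edgeR FDR 0.0438) and 0.61 against model (edgeR FDR 0.416). With 1 rat left out the FDR against control reached 0.121 for Aqp8 and 0.141 for Slc38a4.

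**Figure D4:**
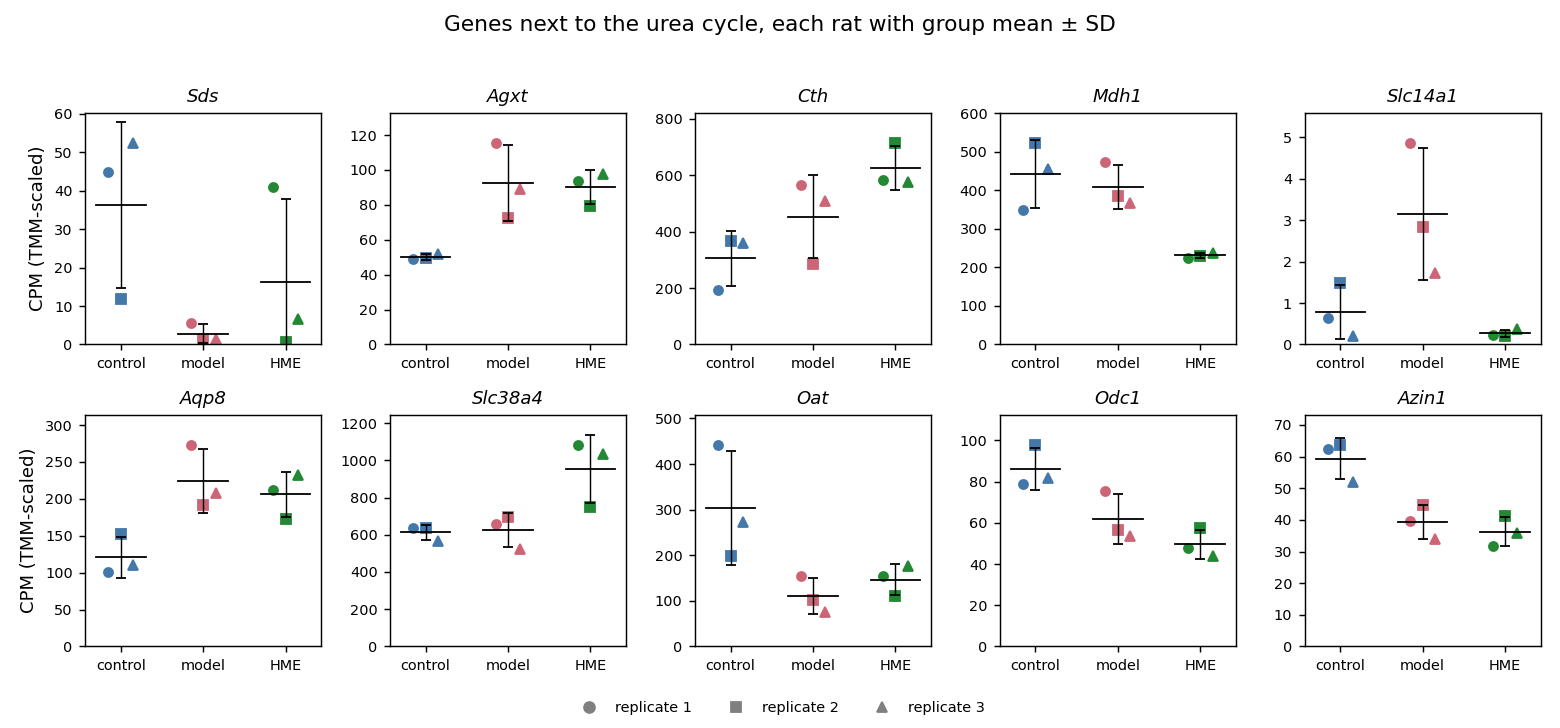
Level in CPM (y axis, from 0) of 10 genes next to the urea cycle in each rat, with the group mean and a bar of 1 SD that is cut where it passes below 0. Mdh1 was lower and Slc38a4 higher in the HME rats than in all others, Agxt was higher in both fructose groups than in the control group, and Sds spanned from 0.755 to 41.1 CPM in the HME rats.

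Of 21 genes for other uses of arginine and ornithine, 20 were in the table, and 18 were tested in the HME group against control, where 6 were lower and 2 higher at an unadjusted p under 0.05, against 24.3% of all genes. The polyamine genes Odc1, which decarboxylates ornithine, and Azin1, which protects it from degradation, were low in both fructose groups. Odc1 was between 78.7 and 97.8 CPM in the control rats and 43.7 and 57.3 CPM in the HME rats (log2FC -0.80, edgeR FDR 0.0106). For Azin1 it was -0.71 (edgeR FDR 0.0132). Oaz1, which marks Odc1 for degradation, was higher in the HME group, with a log2FC of 0.62 against control (edgeR FDR 0.0302, up to 0.0954 with 1 rat left out). In the model rats it was also above every control rat, at 323, 249 and 258 CPM against 144 to 173 CPM (log2FC 0.78, edgeR FDR 0.0844). Oat, which passes ornithine towards glutamate, was at 442, 199 and 273 CPM in the control rats and 154, 102 and 76.5 CPM in the model rats, a log2FC of -1.46 (edgeR FDR 0.121, DESeq2 FDR 0.000755). Between the HME and model groups, Ddah1, which breaks down methylarginines, and Amd1, which feeds polyamine synthesis, had unadjusted p under 0.05. Ddah1 was at 0.48 and Amd1 at -0.37 on the log2 scale (FDR 0.422 and 0.466 from edgeR). Arg2, the other arginase, had at most 9 counts in a library and was not tested.

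Of 17 regulators of the cycle, 16 were in the table, and none passed both thresholds in any of the 3 comparisons. Of all genes, 0.0801% (model against control), 0.136% (HME against model) and 1.48% (HME against control) passed them. The lowest unadjusted p in the model group against control belonged to Cebpa (log2FC 0.37, edgeR FDR 0.296) and Klf15 (-0.41, FDR 0.315). For HME against model they belonged to Cebpb (-1.18, edgeR FDR 0.445) and Nr1h4 (-0.41, FDR 0.644). Cebpb was at 255, 135 and 77.0 CPM in the model rats and overlapped the HME rats. For HME against control they belonged to Sirt5 (-0.57, edgeR FDR 0.0704), a mitochondrial deacylase, and Ppara (0.63, FDR 0.102).

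Since the cycle enzymes are periportal and Glul is pericentral, other markers of both zones were read beside them. Of 13 pericentral markers in the table other than Glul, 3 were higher and 4 lower in the model group against control at an unadjusted p under 0.05 (13.2% of all genes), and their summed level was 3057 to 3608 CPM in the control, 1961 to 2195 CPM in the model and 2940 to 4001 CPM in the HME rats. Cyp2e1, most of that sum, was lower in the model rats without overlap (log2FC -0.63, edgeR FDR 0.117) and higher in the HME rats than in the model rats (1.06, FDR 0.0738). Of the 12 pericentral markers tested between the HME and model groups, 4 were higher and 8 lower, with a median log2FC of -0.20, so the higher sum in the HME rats was that of Cyp2e1 (means of 1178 CPM in the model and 2445 CPM in the HME group). Rhbg, an ammonia carrier of the same cells as Glul, was between 4.82 and 7.18 CPM in the control rats and 7.94 and 8.26 CPM in the model rats (0.48, FDR 0.374). In this comparison 5 of the 13 pericentral markers were higher and 8 lower, with a median log2FC of -0.16. Oat, also on this list, was lower, with means of 304 CPM (control) and 111 CPM (model). Slc1a2 averaged 4.80 and 4.68 CPM in the same order. Of 9 periportal markers other than the cycle genes, 1 was higher and 2 lower at that p, against the same 13.2%. Hal, which frees ammonia from histidine, was the higher one (0.62, edgeR FDR 0.0959), and Aldh1b1 and Sds were the lower ones. Against control, in the HME rats, Aldh1b1 fell past both thresholds (-1.65, edgeR FDR 0.00155), which 1.48% of all genes passed in either direction. The part of zone markers in the differences of the 10 genes was not tested. The summed markers of Kupffer cells and leukocytes, of endothelial and stellate cells, intestine, pancreas, red blood cells and bile duct overlapped between the model and HME rats. Proliferation markers did not overlap between them, each being lower in the HME rats (5 of 5 in the table, against 13.9% of all genes without overlap). Their sum was 7.27 to 14.2 CPM in the model and 2.38 to 5.67 CPM in the HME rats. These levels were low, with Cdk1 at 0.162 to 0.364 CPM in the HME rats. Birc5 was at 1.716 CPM in HME replicate 3 and 1.721 CPM in model replicate 1. Against the control rats, the model rats were higher in the pancreas list (4 of 7 in the table) through Cela1 alone, at means of 14.8 and 22.3 CPM, while Cela2a averaged 0.717 and 0.707 CPM and Cpa1 was at 0 in every model rat.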

How the data were processed

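Liver RNA of 9 rats, 3 in each of 3 groups, was sequenced. The authors aligned reads with HISAT2 and obtained exon counts with HTSeq 0.6.1, ignoring strand. The deposited values are raw whole-number counts per gene, and the submitters' processing notes name the build Rnor 6.0. Overlapping genes and near-identical copies can share reads. A table of assembled transcripts was not used. Each comparison was fitted with edgeR 4.0.16 in R 4.3.3 on 6 libraries (filterByExpr, TMM, glmQLFit with robust estimation, glmQLFTest). Standard errors come from the log2FC and its F statistic, and intervals use them and the t distribution. DESeq2 1.42.0, other scalings and filters, 1 fit of all 9 libraries, the replicate number as a block and each rat left out were alternatives. The tests were tried on simulated data. Samples were grouped by the labels, and the drink, dose and fasting come from the study's methods. Replicates are separate rats. The 10 genes and all other lists were chosen with earlier results of these data known. Context genes are named when differential or at an FDR of at most 0.05 in any comparison, or among the 2 lowest p of their list. Genes most alike in pattern are the 5 nearest and 5 most opposite to the cycle enzymes and the 3 nearest to Glul. The zone markers Cyp2e1, Rhbg, Oat, Slc1a2, Hal and Aldh1b1 were named after their values were seen. Nos2, Nr3c1 and Slc14a2 of the lists were not analysed here. Lengths are of GENCODE M21 mouse transcripts, and no rat sequence was used here.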

Additional observations from a re-analysis of the deposited data

How the results depend on the processing

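The number of the 10 genes past both thresholds was 0 by edgeR in all 3 comparisons. DESeq2 gave 3 in the model group against control (Cps1, Ass1 and Gls2) and 0 in the HME group against model. In the HME group against control, Ass1 alone passed with library size alone, with no filter on low counts, with DESeq2 and at an FDR of 0.05, each giving 1. With each rat left out, the number was 0 to 0 in every comparison, but a number already at 0 could not fall. The replicate numbers do not pair the rats, since the correlations of same-numbered rats lay between -0.27 and -0.01 after removal of group means. With the replicate block the number of the 10 genes stayed at 0 in all comparisons, where it could not fall. Over all genes the block gave 0 higher and 0 lower for model against control. It gave 2 and 5 for HME against model, and 39 and 65 for HME against control. Of the refitted log2 fold changes, 375 kept both direction and side of the thresholds, 6 became differential and 9 changed sign. In the model group against control, Otc was at 0.00 (-0.0049) with library size alone and -0.0093 without model replicate 1, and Slc25a13 was at 0.0051 without control replicate 3 and 0.17 without model replicate 1. With each rat left out they lay between -0.0093 and 0.24 and between -0.26 and 0.17. Slc25a15 in the HME group against model was at 0.034 without model replicate 2 and 0.099 without HME replicate 3 (range -0.16 to 0.099). In the HME group against control, Glul was at -0.025 with library size alone and -0.047 without control replicate 1 (range -0.047 to 0.28), and Cps1 was at 0.047 without HME replicate 2 (range -0.19 to 0.047). Library size alone moved the median log2 fold change of all genes against control to -0.145 for the model and -0.144 for the HME group. Over all genes, DESeq2 made 256, 147 and 769 calls in the comparisons of model with control, HME with model and HME with control, against 10, 17 and 187 by edgeR. Library size alone counted 57 genes higher and 181 lower in the last of these, against 83 and 104 with TMM. At these depths counting error did not limit the 10 genes. Of 26 likeness values recomputed as Spearman's rho or after removal of group means, 7 moved. Fads3 was then at 0.85, Asns at -0.77, Psat1 at -0.75 and Fgfr3 at 0.82 by rho, Jph4 at 0.77 without group means, and Pcsk6 at 0.78 and 0.71.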
